A study of Mus musculus with 6 samples.

Results

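Mitochondrial ribosomal protein genes are the nuclear genes with the symbols Mrpl (large, 39S subunit) and Mrps (small, 28S subunit). They were taken as every row of the deposited gene table whose identifier is a protein-coding gene with a symbol of that form in the GENCODE mouse annotation, whatever its level or change, which gave 78 of 54838 genes, 49 Mrpl and 29 Mrps, on 17 chromosomes. The data were 3′-end RNA-seq counts of sorted acute myeloid leukemia (AML) cells of the I1DN mouse model, 3 samples from recipients given Vehicle and 3 from recipients given AG636, an inhibitor of dihydroorotate dehydrogenase, by oral gavage at 100 mg/kg b.i.d. The comparison asks how the RNA of these cells changed when de novo pyrimidine synthesis was blocked.

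Both groups carried the same alleles, IDH1R132H, DNMT3AR882H and NrasG12D, on a C57BL/6 background, and both had grown in sub-lethally irradiated Ptprca recipients. The model was made by transducing fetal liver cells and passing on the leukemia, so the 6 samples stand for 1 leukemia line and not for independent tumors. Each sample is described as a separate mouse, with cells of bone marrow and spleen isolated by sorting. The sorted immature cells are described as cKit+CD11b- in one place and as cKit-high CD11b-low in another, and the length of treatment also differs between places, so no time is stated here. The libraries held 4634963 to 7906589 counts, and 3 counts in a library corresponded to 0.392 to 0.637 CPM (counts per 1000000 counts of the library, after scaling by TMM).

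Mitochondria keep their own ribosome, which makes the 13 proteins coded by the mitochondrial genome, all of them membrane subunits of the oxidative phosphorylation complexes. Its 2 ribosomal RNAs (rRNAs) are made in the mitochondrion, whereas its proteins are coded in the nucleus, made by cytosolic ribosomes and imported. Some of them are descendants of bacterial ribosomal proteins, and others were added in the mitochondrial lineage. Dihydroorotate dehydrogenase itself sits in the inner mitochondrial membrane and passes its electrons to ubiquinone.

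Mitochondrial ribosomal protein genes were lower in AML cells of AG636-treated mice, in both subunits. They took 0.766%, 0.713% and 0.698% of all counts in the 3 vehicle samples and 0.583%, 0.579% and 0.532% in the 3 AG636 samples. Every AG636 sample was below every vehicle sample. Of the 77 genes that could be tested, 75 had a negative log2 fold change, 32 were lower and 0 were higher by the quasi-likelihood test of edgeR, with p adjusted by the Benjamini-Hochberg method over all 11092 genes tested and a threshold of 0.05. All adjusted p below come from this test. Over all genes tested, 11.0% were lower and 10.3% were higher at that threshold, against 41.6% of the mitochondrial ribosomal protein genes that were lower. These shares, and those below, are not matched for level. The median vehicle level was 86.8 CPM in the family and 30.5 CPM over all genes tested, and the median standard error (SE) was 0.14 against 0.20. Over all genes tested the log2 fold change also fell with vehicle level (Spearman rank correlation -0.35). At an unadjusted p under 0.05, 47 of the 77 were lower and 0 were higher. At an adjusted p under 0.01, 12 were lower, where 2.93% of all genes were.

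The changes were modest in size. The median log2 fold change of the 77 genes was -0.41, with quartiles at -0.58 and -0.25 and extremes of -1.15 for Mrpl12 and 0.20 for Mrpl27, while the median over all genes tested was 0.03. For 54 of the 77 genes every AG636 sample was below every vehicle sample, and for 0 every AG636 sample was above. Among all genes tested these shares were 20.6% and 20.5%. The 95% interval of the fold change held the median of the family for 61 genes, lay below it for 11 and above it for 5.

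**Figure D1:**
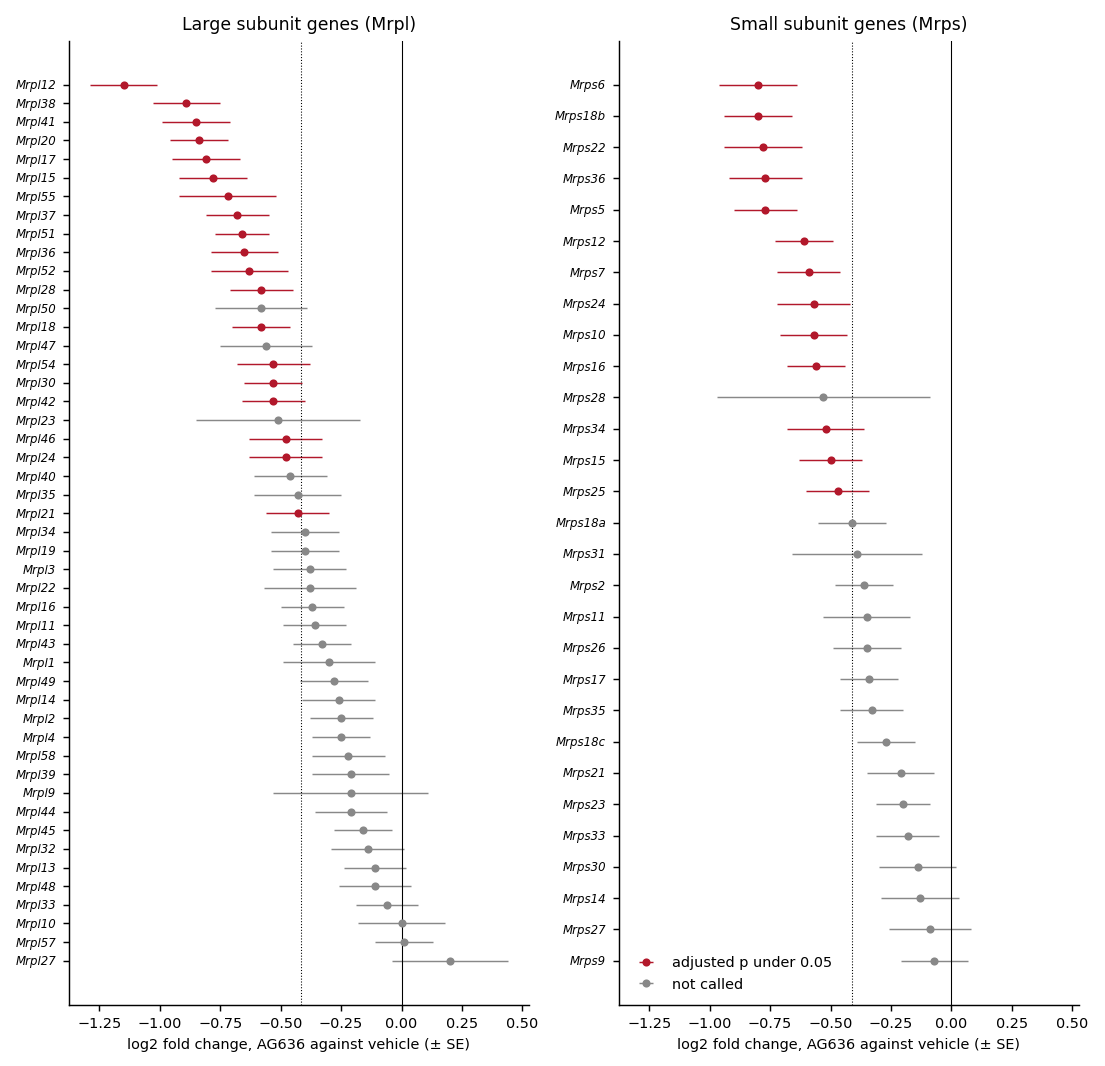
Log2 fold change of each tested Mrpl gene (left, 48 genes) and Mrps gene (right, 29 genes), AG636 against vehicle, with its standard error as a horizontal bar. The solid line is at 0 and the dotted line at the median of the subunit, which was -0.41 in both. Red points, 19 on the left and 13 on the right, had an adjusted p under 0.05, and all of them lie left of 0.

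Large and small subunit genes had the same median change. Of 48 tested Mrpl genes, 19 were lower (39.6%) and 46 were negative. Of 29 tested Mrps genes, 13 were lower (44.8%) and 29 were negative. The median was -0.41 in each, so that the large minus small difference of medians was 0.00. The centred log2 level of each subunit was taken as the median over its genes within each sample. Its large minus small difference was 0.03, 0.02 and -0.06 in the vehicle samples and -0.04, 0.03 and -0.04 in the AG636 samples. These values overlap between the groups and stay near the spread between samples of 1 group (pooled SD 0.05). The split by descent gave close values as well. Genes for bacterial-type proteins gave 19 lower of 46 with a median of -0.41, and genes for mitochondria-specific proteins gave 12 lower of 30 with a median of -0.40. Within the small subunit the medians were -0.51 for 16 bacterial-type genes and -0.37 for 10 mitochondria-specific genes, a difference that was not tested.

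The largest decrease in the family was that of Mrpl12 (chr11:120484613-120489065, plus strand, mm10), which codes for the bL12m protein of the stalk, the flexible arm that receives the translation factors. Its level was 235, 229 and 183 CPM in the vehicle samples and 104, 103 and 83.6 CPM in the AG636 samples. The lowest vehicle sample was well above the highest AG636 sample. The log2 fold change was -1.15 (SE 0.14, n = 3 per group, adjusted p = 0.00245). Mrpl12 binds to the ribosome through bL10m, the product of Mrpl10 (chr11:97041560-97049213, plus strand), which was at 56.3, 45 and 46.8 CPM with vehicle and at 60.3, 48.3 and 39.3 CPM with AG636. These values overlap, with a log2 fold change of 0.00 (SE 0.18, adjusted p = 0.990), so a change of either sign is within its error. The third gene of the stalk region, Mrpl11 for uL11m, was looked up after its values were seen, and had a log2 fold change of -0.36 (SE 0.13, adjusted p = 0.0713).

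The balance between Mrpl12 and Mrpl10 can be read inside each sample. The Mrpl12 to Mrpl10 ratio of CPM was 4.17, 5.08 and 3.91 in the vehicle samples and 1.72, 2.14 and 2.13 in the AG636 samples. The groups did not overlap, and the log2 ratio differed by -1.13 (two-sided exact permutation test, p = 0.1, the smallest that 3 against 3 samples allow). The pair was chosen for its members' values, so the ratio is a description.

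**Figure D2:**
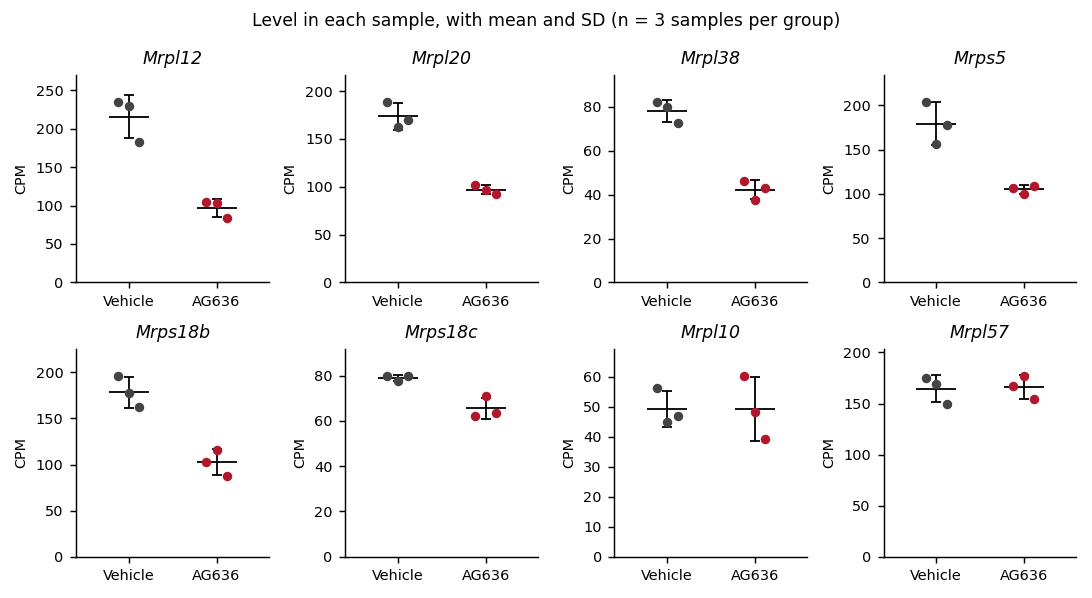
Level of 8 mitochondrial ribosomal protein genes in each sample, in CPM on a linear axis from 0, with 1 point per sample and the mean and SD of 3 samples per group. Mrpl12, Mrpl20, Mrpl38, Mrps5 and Mrps18b separate the groups, as does Mrps18c with a smaller gap, whereas the groups overlap for Mrpl10 and Mrpl57.

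The other large subunit genes with the lowest adjusted p fell by 0.66 to 0.89 on the log2 scale. Mrpl20 (chr4:155802878-155809975, plus strand), for bL20m, a protein that in bacteria is needed early in large subunit assembly, was at 189, 162 and 170 CPM with vehicle and 102, 96.5 and 92.5 CPM with AG636 (log2 fold change -0.84, SE 0.12, adjusted p = 0.00329). Mrpl38 (chr11:116131817-116138868, minus strand), for a mitochondria-specific protein of the central protuberance, was at 82.4, 79.9 and 72.7 CPM against 46.1, 37.7 and 42.9 CPM (-0.89, SE 0.14, adjusted p = 0.00411). In both genes the AG636 samples lay close together and far below the vehicle samples. Mrpl41 (chr2:24974117-24975098, minus strand), for another mitochondria-specific protein, was at 76.7, 74.9 and 72.3 CPM against 44.2, 35.5 and 44.4 CPM (-0.85, SE 0.14, adjusted p = 0.00501). Mrpl51 (chr6:125191801-125196269, plus strand), also mitochondria-specific, was at 191, 174 and 171 CPM against 106, 115 and 118 CPM (-0.66, SE 0.11, adjusted p = 0.00608). The groups did not overlap in either gene.

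The next 3 large subunit genes separated the groups in the same way. Mrpl17 (chr7:105803206-105811099, minus strand), for the bacterial-type protein bL17m, was at 155, 136 and 110 CPM with vehicle and 77.3, 78.8 and 72.9 CPM with AG636 (log2 fold change -0.81, SE 0.14, adjusted p = 0.00667). Mrpl15 (chr1:4773206-4785739, minus strand), for uL15m, was at 124, 109 and 105 CPM against 55.9, 75.1 and 65.9 CPM (-0.78, SE 0.14, adjusted p = 0.00730). Mrpl37 (chr4:107055874-107066868, minus strand), for a mitochondria-specific protein, was at 107, 109 and 97.6 CPM against 69.2, 68.0 and 59.1 CPM (-0.68, SE 0.13, adjusted p = 0.00754). For each of them vehicle replicates 1 and 2 were the highest samples.

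The promoters of these genes share no single element among the letters searched. RefSeq windows from 250 bases before to 50 bases after the start (GRCm38.p6) were matched for 69 of the 78 genes and searched on both strands. The stretches below are from genes that fell and, for comparison, from Mrpl57, which did not change beyond its error and was chosen after its values were seen. They are read 5′ to 3′ along the gene, except for Mrpl37 they begin 100 bases before the start and stop before the first base that GENCODE places in an exon of the gene, and capitals mark the matched letters. The match is to the NRF1 letters GCGCANGCG or their complement in Mrpl12 (chr11:120484537-120484612, plus strand), Mrpl17 (chr7:105811100-105811187, minus strand) and Mrpl57 (chr14:57826139-57826233, plus strand), to the E-box CACGTG in Mrpl20 (chr4:155802778-155802877, plus strand), and to the YY1 letters AAGATGGCG in Mrpl37 (chr4:107066822-107066851, minus strand), where the site lies 27 bases after the start and only 30 bases are shown.
Mrpl12: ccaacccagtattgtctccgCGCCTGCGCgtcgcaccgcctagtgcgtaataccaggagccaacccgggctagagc
Mrpl17: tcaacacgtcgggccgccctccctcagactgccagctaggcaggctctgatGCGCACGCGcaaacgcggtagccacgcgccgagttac
Mrpl57: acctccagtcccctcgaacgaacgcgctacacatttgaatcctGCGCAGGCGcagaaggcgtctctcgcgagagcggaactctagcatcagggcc
Mrpl20: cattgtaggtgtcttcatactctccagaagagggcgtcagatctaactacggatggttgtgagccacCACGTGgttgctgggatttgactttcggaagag
Mrpl37: ctgcacgggcaAAGATGGCGgcgtccaggt

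The YY1 letters stood in the windows of 8 of the 69 genes (11.6%), beside 1.64% of all genes with a window and 4.10% of those tested here. Of those 8 genes, 4 were lower with a median log2 fold change of -0.48, and of the 60 tested genes with a window that lacked the letters 24 were lower with a median of -0.38. The NRF1 letters stood in the windows of 16 of the 69 genes (23.2%, beside 7.03% of all genes and 16.6% of genes tested). Of those 16 genes 4 were lower with a median of -0.21, against 24 of 52 without the letters and a median of -0.46. Mrpl12 at -1.15 and Mrpl57 at 0.01 both hold a match. The ETS letters CCGGAAGT stood in the windows of 12 genes (17.4%, beside 4.31% of all genes and 10.4% of genes tested), with 4 lower. E-box letters stood in those of 5 genes (7.25%, beside 8.09% and 12.3%), with 3 lower, and TATAAA in those of 5 (7.25%, beside 15.7% and 8.26%), with 2 lower. A match of letters is a description of sequence and was not tied to binding or to the change.

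In the small subunit the lowest adjusted p were those of Mrps5 and Mrps18b. Mrps5 (chr2:127587222-127606829, plus strand) codes for uS5m, which in bacterial ribosomes lines the mRNA entrance. Its level was 204, 156 and 178 CPM with vehicle and 107, 99.6 and 109 CPM with AG636, so that the AG636 samples lay close together and below all vehicle samples (log2 fold change -0.77, SE 0.13, adjusted p = 0.00570). Mrps6, for bS6m, changed by -0.80 (SE 0.16, adjusted p = 0.0110), and Mrps12, for uS12m of the decoding centre, by -0.61 (SE 0.12, adjusted p = 0.0102), 2 genes named after their values were seen. Of the other tested Mrps genes, the one nearest to 0 was Mrps9, at -0.07.

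The 3 Mrps18 genes code for related proteins that hold different places in the ribosome. Mrps18b (chr17:35910379-35916389, minus strand) was at 196, 177 and 162 CPM with vehicle and 103, 116 and 87.8 CPM with AG636, and it fell by 0.80 on the log2 scale (SE 0.14, adjusted p = 0.00593). Mrps18a (chr17:46110986-46128910, plus strand), whose protein sits in the large subunit despite its symbol, was at 62.8, 50 and 52.2 CPM against 42.3, 41.9 and 39.6 CPM (-0.41, SE 0.14, adjusted p = 0.0660). Mrps18c (chr5:100798627-100804471, plus strand) was at 79.7, 77.6 and 79.8 CPM against 62.0, 70.9 and 63.6 CPM (-0.27, SE 0.12, adjusted p = 0.137). In all 3 the AG636 samples were below the vehicle samples, although only Mrps18b passed the threshold. The Mrps18b to Mrps18c ratio was 2.47, 2.28 and 2.03 with vehicle and 1.67, 1.63 and 1.38 with AG636, without overlap (two-sided exact permutation test, p = 0.1, the smallest possible). The Mrps18b to Mrps18a ratio was 3.13, 3.54 and 3.10 against 2.45, 2.76 and 2.21, also without overlap and with the same p.

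Mrps36 and Mrps30 also have symbols that do not match where their protein is found. The first (chr13:100735955-100744659, minus strand) codes for a protein now known as a subunit of the 2-oxoglutarate dehydrogenase complex and not as a stable part of the ribosome. It was at 108, 92.7 and 83.8 CPM with vehicle and 63.7, 49.3 and 54.0 CPM with AG636, without overlap (log2 fold change -0.77, SE 0.15, adjusted p = 0.00930). Mrps30 (chr13:118378381-118387252, minus strand), whose protein is part of the large subunit, was at 86.5, 82.1 and 79.4 CPM against 65.8, 93.6 and 65.7 CPM (-0.14, SE 0.16, adjusted p = 0.554). AG636 replicate 2 was the highest of its 6 samples, so the groups overlap. With subunits assigned by place instead of symbol, 19 of 50 large subunit genes and 12 of 26 small subunit genes were lower, with medians of -0.41 and -0.43.

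Genes with the highest counts of each subunit did not move alike. Mrpl18 (chr17:12911349-12916345, minus strand), for uL18m, a protein of the central protuberance that binds 5S rRNA in bacteria, was at 338, 306 and 297 CPM with vehicle and 214, 223 and 190 CPM with AG636 (log2 fold change -0.58, SE 0.12, adjusted p = 0.00980). Mrpl52 (chr14:54426909-54429756, plus strand), for a mitochondria-specific protein, was at 315, 256 and 212 CPM against 167, 189 and 151 CPM (-0.63, SE 0.16, adjusted p = 0.0217). Both separated the groups, and the call of Mrpl52 was lost in 4 of the 6 fits that left out 1 sample. Mrps21 (chr3:95862634-95871519, minus strand), for bS21m, was at 219, 192 and 161 CPM against 185, 160 and 151 CPM, which overlap (-0.21, SE 0.14, adjusted p = 0.318).

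The 4 genes with the highest log2 fold changes of the family did not pass the test. Mrpl27 (chr11:94653767-94660089, plus strand), for bL27m near the peptidyl transferase centre, was at 54.7, 27.7 and 35.3 CPM with vehicle and 47.6, 49.3 and 37.9 CPM with AG636 (0.20, SE 0.24, adjusted p = 0.580). Mrpl57 (chr14:57826234-57829296, plus strand), mitochondria-specific, was at 175, 169 and 150 CPM against 167, 177 and 154 CPM (0.01, SE 0.12, adjusted p = 0.953). Mrpl33 (chr5:31596935-31664384, plus strand), for the small protein bL33m, was at 160, 159 and 163 CPM against 175, 131 and 156 CPM (-0.06, SE 0.13, adjusted p = 0.767). The fourth was Mrpl10, given above. The groups overlap in all 4, and the sign of each changed under some other setting. The 95% interval of Mrpl57, from -0.25 to 0.27, lay above the median of the family.

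**Figure D3:**
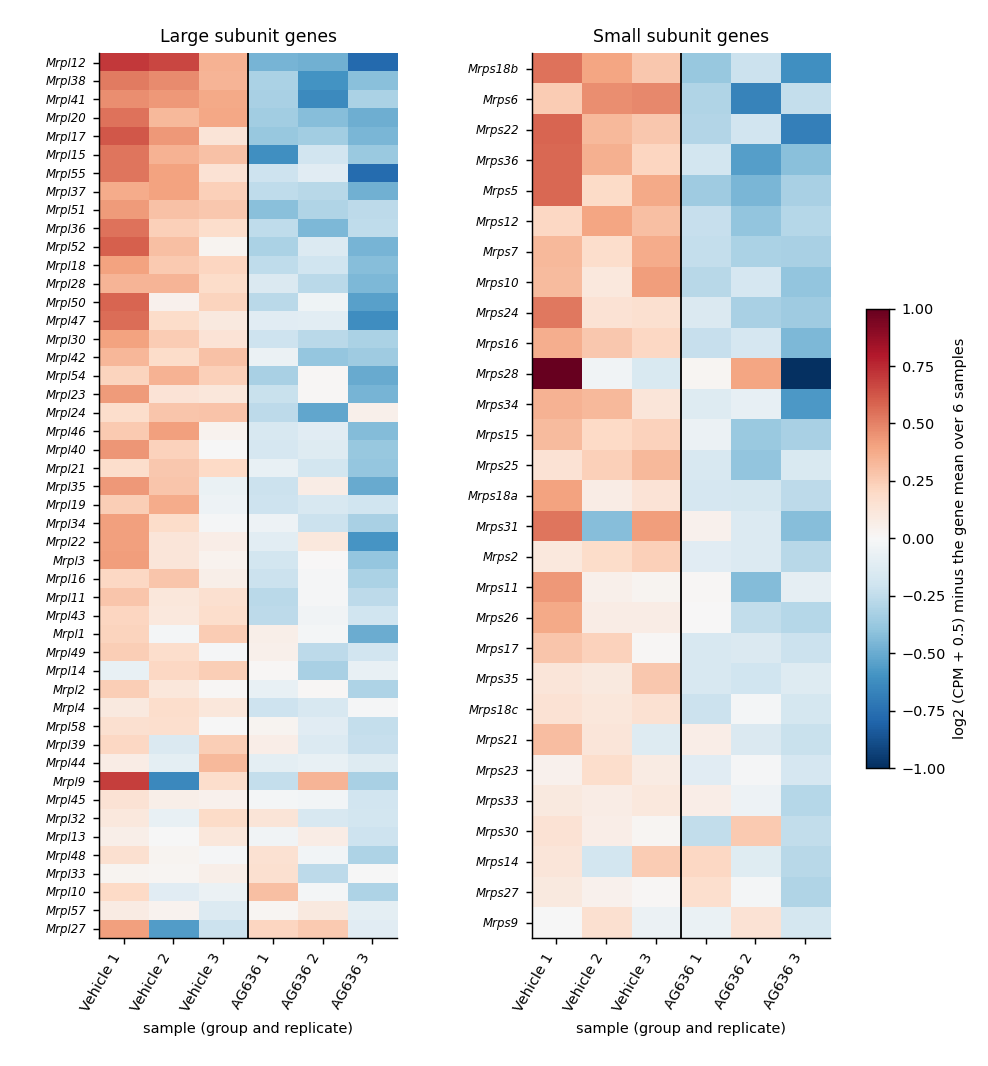
Level of every tested mitochondrial ribosomal protein gene in each of the 6 samples, as log2 (CPM + 0.5) minus the mean of the gene, with Mrpl genes on the left and Mrps genes on the right and the most decreased genes at the top. Red is above and blue below the mean of the gene, the colour scale ends at -1 and 1, and the vertical line parts vehicle from AG636 samples. The reddest column is vehicle replicate 1 and the bluest AG636 replicate 3.

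The level of the family as a whole separated the groups. The median over the 77 genes of the centred log2 level was 0.31, 0.18 and 0.16 in the vehicle samples. In the AG636 samples it was -0.16, -0.14 and -0.32, a difference of -0.43 between group means with a pooled SD of 0.09. The same median over all genes was between 0.00 and 0.02 in every sample. Vehicle replicate 1 was the highest and AG636 replicate 3 the lowest. Without AG636 replicate 3 the number of lower genes was 17, and without vehicle replicate 1 it was 22, with medians of -0.35 and -0.37. Of the 32 lower genes, 16 were lower in all 6 fits that left out 1 sample and in all 7 other alternative fits, among them the 10 with the lowest adjusted p, and all 32 had a negative log2 fold change in every fit.

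One gene could not be tested. Mrpl53 (chr6:83109040-83109939, plus strand) had 0 counts in all 6 samples, but 88.0% of its exon bases are shared on the same strand with the annotated gene Gm42688, which had 3 counts in all. Reads that match both genes may have been assigned to neither, which was not tested, so the 0 sets no limit on its level. Exons of 32 of the 78 genes overlap an exon of another gene. Of the 46 without such overlap, 19 were lower with a median of -0.45. Mrpl46 and Mrps11 lie head to head on chromosome 7 and share 173 exon bases on opposite strands. Mrpl46, named after its values were seen, was lower (log2 fold change -0.48, SE 0.15, adjusted p = 0.0494), and Mrps11 was at -0.35 (SE 0.18, adjusted p = 0.202), while their ratio overlapped between the groups at 1.38, 1.99 and 1.56 with vehicle and 1.37, 1.94 and 1.22 with AG636. Since the counting's strand setting is not given in the sources used here, reads of overlapping opposite genes cannot be told apart, which also touches Mrpl12, Mrpl18, Mrps18b, Mrpl27, Mrpl10 and Mrps30.

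Genes for 5 mitochondrial ribosomal proteins have other symbols, and 3 of them were lower. Ptcd3 (small subunit) was at 152, 93.3 and 102 CPM with vehicle and 67.1, 69.9 and 63.2 CPM with AG636 (log2 fold change -0.79, SE 0.18, adjusted p = 0.0162). Gadd45gip1 (large subunit) was at 154, 133 and 116 CPM against 96.2, 94.2 and 98.3 CPM (-0.48, SE 0.13, adjusted p = 0.0297), and Aurkaip1 (small subunit) at 143, 134 and 147 CPM against 105, 111 and 95.5 CPM (-0.44, SE 0.12, adjusted p = 0.0264). Each of these calls was lost in some of 13 alternative fits, that of Ptcd3 in 2, of Aurkaip1 in 5 and of Gadd45gip1 in 6. Dap3, a GTP-binding protein of the small subunit, was at -0.42 (SE 0.14, adjusted p = 0.0565) and Chchd1 at -0.21 (SE 0.11, adjusted p = 0.196), and in all 5 every AG636 sample was below every vehicle sample. Mrpl58, the gene for a peptidyl-tRNA hydrolase built into the large subunit, already counts among the Mrpl genes and was at -0.22 (SE 0.15, adjusted p = 0.305).

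Of 44 genes for factors of mitochondrial translation and ribosome assembly, 8 were lower (18.2%, beside 11.0% of all genes tested) and 0 were higher, with a median of -0.30. Fastkd2, which acts on the large ribosomal RNA, changed by -1.05 (SE 0.18, adjusted p = 0.00539), and Tufm, the elongation factor that delivers aminoacyl-tRNA, by -0.98 (SE 0.18, adjusted p = 0.00699). Lrpprc, which stabilises mitochondrial mRNAs, changed by -1.0 (SE 0.20, adjusted p = 0.00996), and Noa1, an assembly GTPase, by -0.79 (SE 0.22, adjusted p = 0.0301). The other 4 were Gfm2 (-0.61), Guf1 (-0.54), Mrm3 (-0.77) and Taco1 (-1.25). Fastkd2, Tufm and Lrpprc kept their calls in all 13 alternative fits. The call was lost in 4 of them for Noa1, 6 for Mrm3, 8 each for Gfm2 and Guf1 and 9 for Taco1, where DESeq2 and limma-voom are among the 9. Among 25 assembly and rRNA modification genes 3 were lower (12%, near the share of all genes), among 4 elongation genes 2, and among 4 genes of mitochondrial transcription 0. Of 17 mitochondrial tRNA synthetases, 4 were lower (23.5%) and 0 were higher (median -0.37).

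Beside these, 27 of 83 protein-coding genes with Rpl or Rps symbols were lower (32.5%, median -0.35) and 0 were higher. Most code for cytosolic ribosomal proteins, but the list, taken by symbol, also holds Rps19bp1, for a protein that binds one of them, and like-named copies such as Rpl7l1. Of 73 nuclear genes for oxidative phosphorylation subunits, 8 were lower (11.0%, median -0.13) and 0 were higher, the same 11.0% as among all genes tested. These are descriptions of lists, and the differences between them were not tested.

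**Figure D4:**
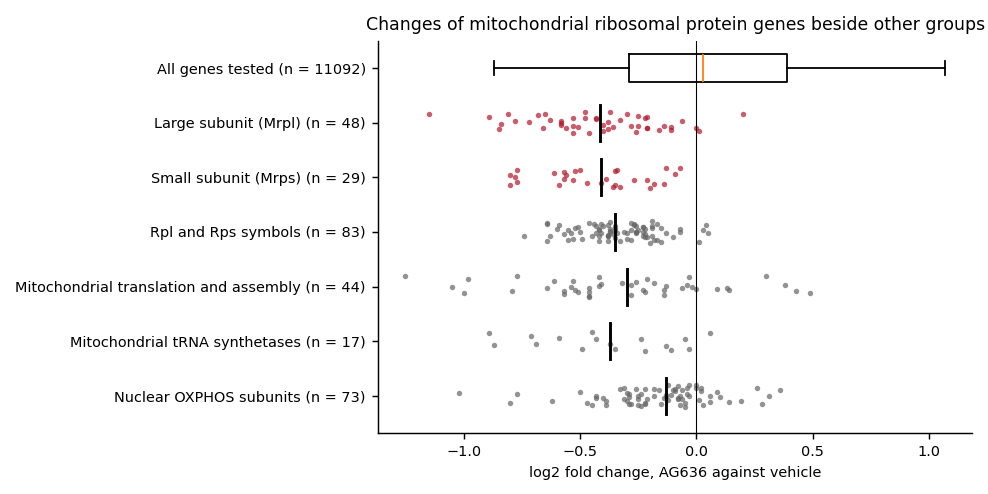
Log2 fold change, AG636 against vehicle, of single genes (points, spread at random in height) in 6 groups, with a black line at the median of each group. The box above shows all 11092 genes tested, with its median and quartiles and whiskers at the 5th and 95th percentiles. The medians of the Mrpl and Mrps genes lie at -0.41 and that of the oxidative phosphorylation genes at -0.13.

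Counts of the rRNAs of the mitochondrial ribosome moved the other way. The 12S rRNA gene mt-Rnr1 was at 2420, 2309 and 1804 CPM with vehicle and 4869, 3384 and 3320 CPM with AG636 (log2 fold change 0.82, SE 0.17, adjusted p = 0.0102). The 16S rRNA gene mt-Rnr2 was at 4288, 3890 and 3588 CPM against 7924, 6329 and 5936 CPM (0.78, SE 0.12, adjusted p = 0.00462). Both rose without overlap, with AG636 replicate 1 the highest. The ratio of mt-Rnr2 to mt-Rnr1 was 1.77, 1.68 and 1.99 with vehicle and 1.63, 1.87 and 1.79 with AG636, which overlap. Of the 11 mitochondrial protein-coding genes tested, 5 were lower, among them mt-Cytb (-1.18, SE 0.18, adjusted p = 0.00411) and mt-Nd4 (-0.98, SE 0.23, adjusted p = 0.0166). Also among the 5, mt-Atp6 and mt-Atp8 share 43 bases on the same strand. Only 1 was higher, mt-Nd6 (1.14, SE 0.33, adjusted p = 0.0353), the gene coded on the opposite strand, which shares 14 bases with mt-Nd5. The libraries were primed at 3′ ends, so counts of these rRNAs and mRNAs may not follow their amounts, which was not tested. Too few counts, 24 and 3 in all, were left to test mt-Nd3 and mt-Nd4l. Nuclear copies of mitochondrial sequence can share reads with all of these genes, and their part was not tested.

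**Figure D5:**
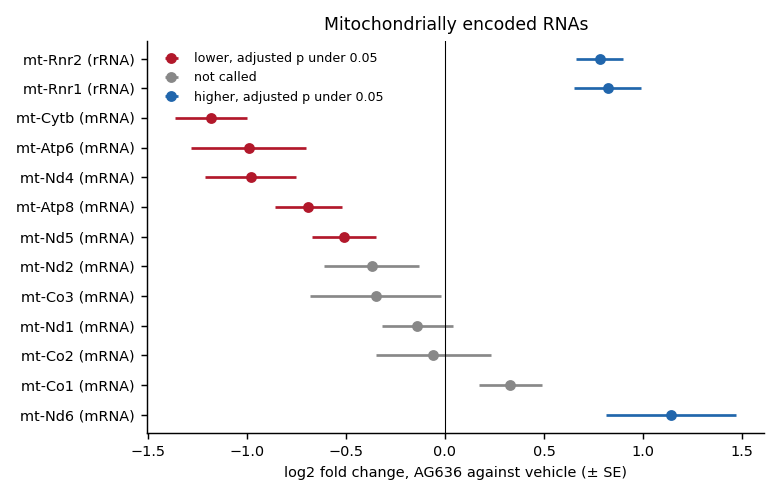
Log2 fold change of the 13 tested mitochondrially encoded genes, AG636 against vehicle, with its standard error as a horizontal bar and the line at 0. Blue points were higher and red points lower at an adjusted p under 0.05, and both rRNAs are on the right at 0.78 and 0.82.

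Markers of other cell stages moved with the treatment. Of 8 mature neutrophil markers, 6 were higher and 0 lower, and their summed level was 1030 to 2357 CPM with vehicle and 2867 to 5870 CPM with AG636. Most of that sum came from S100a8 and S100a9, and S100a8 overlapped between the groups and was not called (adjusted p = 0.0872). Vehicle replicate 1, the sample with the highest mitochondrial ribosomal protein level, had the lowest neutrophil sum. It was not the lowest for every marker, as with Ngp at 78.6, 103 and 76.5 CPM in the vehicle samples. Among the AG636 samples the order differed, since replicate 3, with the lowest mitochondrial ribosomal protein level, also had the lowest neutrophil sum, 2867 CPM. A link between the 2 levels was not tested. Of the 3 gate markers, Itgam, which codes for CD11b, and Ptprc were higher and Kit did not separate the groups. Both descriptions of the gate name low or absent CD11b, and the purity of the sorted cells was not tested here. Of the exon bases of Itgam, 68.7% are shared on the same strand with the annotated gene Gm49368, which had 5 counts in all. Summed B cell markers were at 6.78 to 14.6 CPM against 14.6 to 19.5 CPM, mostly from Cd79b. Summed T and NK cell markers were at 191 to 329 CPM against 256 to 493 CPM, nearly all from Nkg7. The T cell genes Cd3d, Cd3e, Cd3g and Cd8a were each at 2.45 CPM or lower in every sample and could not be tested. Monocyte and macrophage markers were at 26.0 to 34.5 CPM against 35.5 to 66.3 CPM with 1 of 6 higher. Megakaryocyte markers (2 of 4 higher) summed to 774 to 1203 CPM against 1045 to 1698 CPM. Of the other megakaryocyte markers, Pf4 overlapped between the groups. Ppbp went the other way without overlap, short of the threshold (log2 fold change -0.74, SE 0.24, adjusted p = 0.0534). Mast cell and basophil markers (1 of 4 higher) summed to 314 to 553 CPM against 442 to 1028 CPM, and progenitor markers (1 of 3 higher) to 550 to 711 CPM against 612 to 882 CPM. No marker was at 0 in all samples. The part of these shifts in the mitochondrial ribosomal protein result was not tested, and in bulk RNA fewer cells of a kind and less RNA per cell cannot be told apart.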

How the data were processed

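Count values are those the authors deposited in 1 table of raw read counts per gene, with no normalization, from 3′-end libraries (QuantSeq) of the 6 samples. The submitters' processing notes name cutadapt 1.9.1, HISAT2 2.0.4, featureCounts of Subread 1.5.0-p3 and GRCm38 (mm10). The annotation release and the strand setting are not given in the sources used here. The deposited exon lengths, in bases, were used only in checks. Symbols came from GENCODE M21, which matched 54809 identifiers.

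Genes were filtered with filterByExpr (minimum count 10, total 15), scaled by TMM and tested with the quasi-likelihood test of edgeR 4.0.16 in R 4.3.3, AG636 against Vehicle, with p-values adjusted over all genes tested; the fit was tested on simulated data. The standard error is the log2 fold change over the square root of its F. DESeq2 1.42.0 and limma 3.58.1 served as alternatives. P-values measure the spread between 3 samples a group. Within groups, samples differed by more than counting noise (chi-square per degree of freedom 6.67 to 15.9).

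The members and gene lists were chosen with earlier results of these data known. Genes named are the 10 with the lowest adjusted p, the 4 with the highest fold change, the 2 with the highest mean CPM per subunit, the Mrps18 genes, Mrps30, Mrps36, any gene removed by the filter, and, outside the family, mitochondrial ribosomal proteins with other symbols and the 8 assembly and translation genes with the lowest adjusted p. Others are said to be named after their values were seen. The 5 pseudogenes with matching symbols (14 counts in all) were left out. The erythroid marker list is not reported here.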

Additional observations from a re-analysis of the deposited data

How the results depend on the processing

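The number of mitochondrial ribosomal protein genes higher with AG636 was 0 in every alternative run, while the number lower was 35 with DESeq2, 32 with limma-voom, 26 with library size alone, 37 with no filter and 12 at an adjusted p under 0.01 in place of 0.05. Restricted to members without exon overlap, 19 of 46 were lower and the large minus small difference of medians was -0.08. With library size alone, all genes together had a median log2 fold change of 0.12, and the medians of the family and of its small subunit were -0.32, the same -0.44 below all genes as with TMM. Leaving out each sample in turn gave 17 (without AG636 replicate 3) to 35 lower genes, a median of -0.51 to -0.37 for small subunit genes and a large minus small difference of -0.06 to 0.07. Same-numbered samples correlated at -0.0573, -0.178 and 0.224 in their deviations from group means, and other-numbered samples at -0.38 to 0.364. So few values show no pairing by number but cannot exclude it. With the replicate number as a block, 32 genes were lower, 31 of them among the 32 without it. The 4 genes with the highest fold changes changed sign. Leaving out each sample in turn, Mrpl27 ranged from -0.02 to 0.50, Mrpl57 from -0.07 to 0.06, Mrpl10 from -0.18 to 0.14 and Mrpl33 from -0.16 to 0.04. With library size alone Mrpl10 was at 0.08 and Mrpl33 at 0.03, and with no filter Mrpl57 was at -0.01. Depth limits statements on Mrpl23 and Mrps28. The cause of these shifts was not tested.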
